A study of Mus musculus with 12 samples.

Results

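Hearts of control mice were compared between postnatal day 10 (P10) and 7 months of age, across all genes. The 6 libraries titled control heart, 3 at each age, were taken from a series of 12 libraries. The other 6 came from mutant hearts of the same ages and serve here as a second series of ages. Control mice had the genotype aMHC-+/+;Jarid2 f/f, and mutants aMHC-C/+;Jarid2 f/f. Both alleles of Jarid2 were therefore floxed in every animal, and the control hearts lacked the aMHC-C allele, read here as a Cre recombinase driven by the alpha myosin heavy chain promoter. The mice had a mixed 129/Svj and C57BL/6 background. Each library was made from polyadenylated RNA of whole frozen heart, so muscle, vessel, connective tissue and immune cells of all chambers enter each value. The study had 2 ages only, and the labels name neither the sex of the animals nor a batch.

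The mouse heart is still maturing at P10. Around birth its muscle cells leave the cell cycle and then grow by enlarging. They replace fetal contractile proteins by adult isoforms, build the T-tubules and calcium stores that couple excitation to contraction, and turn from glucose and lactate toward fatty acids as their main fuel. Fibroblasts lay down most of the collagen framework in the same weeks, and macrophages of bone marrow origin join those seeded in the embryo. The comparison asks which of these changes can be read from messenger RNA in hearts without Cre.

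Levels are given as CPM, the counts of a gene per 1000000 counts of its library. Jarid2 itself, the floxed gene, stood at 32.4, 33.3 and 36.9 CPM in the P10 controls and 17.3, 17.8 and 16.6 in the 7-month controls. It stood at 36.1, 41.7 and 33.4 in the P10 mutants and 13.0, 10.6 and 11.7 in the 7-month mutants. The 7-month mutants thus lay below all 7-month controls, while the P10 mutants overlapped the P10 controls. Counts over the whole gene do not show the floxed part alone, so these values do not check the labels at P10.

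Depth was very uneven. In 5 of the control libraries 37624037 to 45740229 estimated counts were assigned to genes, and in P10 control 2 only 241419. CPM values are scaled between libraries by the TMM method. In P10 control 2 each read then amounts to 3.33 CPM, and the 3 reads used as its floor to 9.99 CPM. A value of 0 in that library therefore says little about a gene below that level, and its low values rest on few reads. Over the 6 libraries the first principal component (75.9% of the variance) set P10 control 2 apart and the second (17.4%) separated the ages. With that library left out, the first component (72.3%) separated the ages. Left out of the test, P10 control 2 changed the number of genes called in either direction by at most 1 in each list described below, except for oxidative phosphorylation.

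The libraries also differed in transcripts of the sex chromosomes. Xist, the RNA that silences an X chromosome in female cells, stood at 0.887, 117 and 236 CPM in the 3 P10 libraries and at 0.489, 0.996 and 0.970 CPM at 7 months. Eif2s3y, a gene of the Y chromosome, stood at 56.1, 13.3 and 24.2 CPM and at 39.0, 40.1 and 44.1 CPM. P10 controls 2 and 3 thus held Xist together with Y transcripts, while P10 control 1 and all 7-month controls held little Xist. In P10 control 2, where 1 read is worth 3.33 CPM, the Eif2s3y value rests on few reads. Age and these transcripts cannot be fully told apart here, and P10 control 1 alone was therefore also set against the 7-month hearts.

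Atrial transcripts varied too. Myl7, the atrial regulatory light chain, stood at 231, 23.3 and 157 CPM at P10 and 3.06, 6.14 and 10.1 CPM at 7 months, and Dkk3, another gene of atrial muscle, at 34.2, 20.0 and 30.5 and 3.94, 2.05 and 2.50 CPM. The groups did not overlap, but P10 control 2 held far less Myl7 than the other P10 libraries. Of 8 atrial markers 7 were tested, of which 3 fell and 2 rose. The summed level of all 8 was 373 to 1003 CPM at P10 and 467 to 553 CPM at 7 months. The share of atrial tissue in each sample is not given, and its part in the results was not tested. Markers of ventricular and general heart muscle were high throughout, and markers of lung summed to at most 0.164 CPM and of skeletal muscle to at most 2.75 CPM in any control library.

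**Figure D1:**
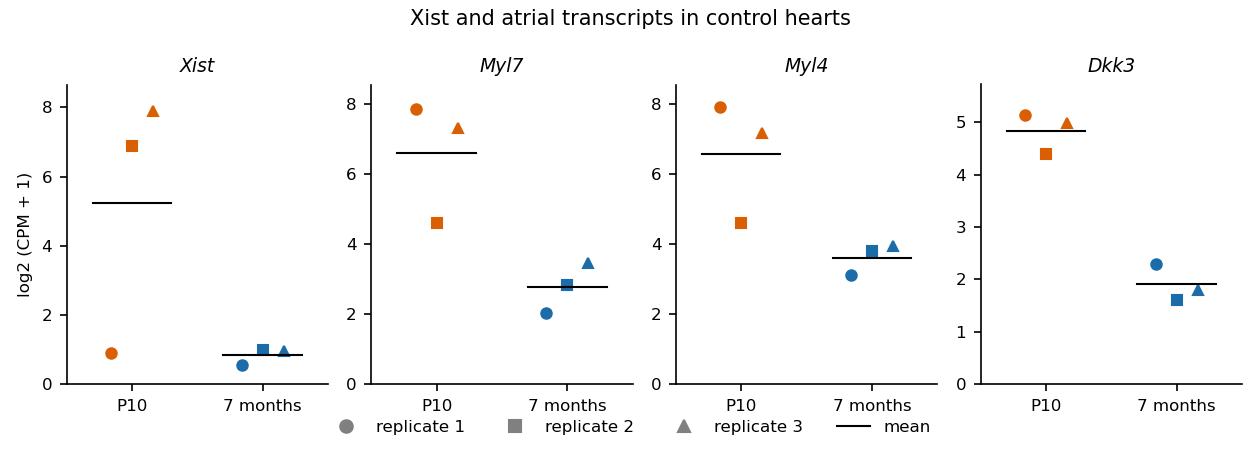
Levels of Xist and of the atrial genes Myl7, Myl4 and Dkk3 in each control library, as log2 of CPM plus 1, with replicates by symbol and the group mean as a line. Xist is high in P10 controls 2 and 3 only, and the atrial genes are lower in all 7-month libraries than in all P10 libraries.

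Of 15478 gene rows tested, 7770 (50.2%) passed an adjusted p of 0.05 between the ages. They were evenly split, with 3890 (25.1%) higher at 7 months and 3880 (25.1%) lower. At least 2-fold changes made up 1554 of the rises (10.0% of the rows tested) and 1542 of the falls (9.96%). The CPM ranges of the 2 groups did not overlap in 6832 rows (44.1%). Counts of list members below are to be read against these shares: a list of which about 25.1% rose and 25.1% fell does not stand out from the rest. Tests are by edgeR's quasi-likelihood test with Benjamini-Hochberg adjustment over all rows.

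The largest falls were led by a contractile protein. Tnni1, the slow skeletal troponin I that the fetal heart uses, stood at 240.3, 279.6 and 631 CPM at P10 and at 0.180, 0.304 and 0.294 CPM at 7 months (log2 fold change -10.58, SE 0.53, adjusted p = 3.03e-07), which is 1528-fold. The gene lies on chromosome 1, 135783033 to 135810989 (GRCm38.p6). Without P10 control 3, the highest library, the value was -9.93, adjusted p = 4.7e-10. Most other genes in this group encode secreted or matrix proteins: the collagen-associated protein Cthrc1 (-5.68), elastin (-5.18), the collagen Col26a1 (-5.03), the carboxypeptidases Cpa1 (-5.77) and Cpz (-4.67), fibrillin 2 (-4.56), the elastic fibre protein Mfap4 (-4.47), periostin (-4.23) and the growth factor midkine, Mdk (-4.35). The imprinted gene Mest (-4.86), the binding protein Igfbpl1 (-4.73), the potassium channel subunit Kcne1 (-4.72) and the growth factor Igf2 (-4.14) completed it with Myl7. These values are log2 fold changes, and each but that of Myl7 held its call in all alternatives that tested the gene. Cpz stood at -5.42, adjusted p = 4.63e-07 without 7-month control 3.

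The largest rises came from genes that were low at P10. Inmt, a methyltransferase of small amines, went from 0.0665, 0 and 0.0819 to 18.1, 12.3 and 31.6 CPM (log2 fold change 8.06, SE 0.57, adjusted p = 9.06e-07). Bdh1, the mitochondrial enzyme that interconverts the ketone bodies acetoacetate and hydroxybutyrate, went from 0.510, 0 and 0.369 to 119, 92.9 and 113 CPM (log2 fold change 7.95, SE 0.24, adjusted p = 2.1e-10; chromosome 16, 31422297 to 31458901). Scn4b, an accessory subunit of sodium channels, went from 0.111, 0 and 0.143 to 13.6, 21.9 and 9.62 CPM (log2 fold change 6.85, SE 0.46, adjusted p = 2.35e-07; chromosome 9, 45138624 to 45154155). In all these genes the 0 belongs to the shallow P10 control 2, and P10 controls 1 and 3 were low as well.

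Others of this group were Hsd11b1, which regenerates active glucocorticoid (6.51), the potassium channel subunit Kcnv2 (6.15), the carboxylesterase Ces1d (5.44), the glutathione transferases Gsta1 and Gsta3 (5.33 and 5.42), and a set of secreted immune proteins. The latter were the chemokines Cxcl14 (7.29), Ccl8 (6.14) and Ccl11 (5.31), the complement component C7 (6.09) and Retnla, a product of alternatively activated macrophages (5.78), along with the interferon-induced Ifi205 (5.76). Because the P10 counts are few, these log2 values are imprecise. Kcnv2 stood at 5.39, adjusted p = 0.000281 without P10 control 1 and at 8.10, adjusted p = 0.000131 without P10 control 3, and Gsta3 at 6.46, adjusted p = 3.19e-06 without P10 control 3. Gsta1 and Gsta3 are close copies that can share reads, as are members of the Ifi200 family.

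**Figure D2:**
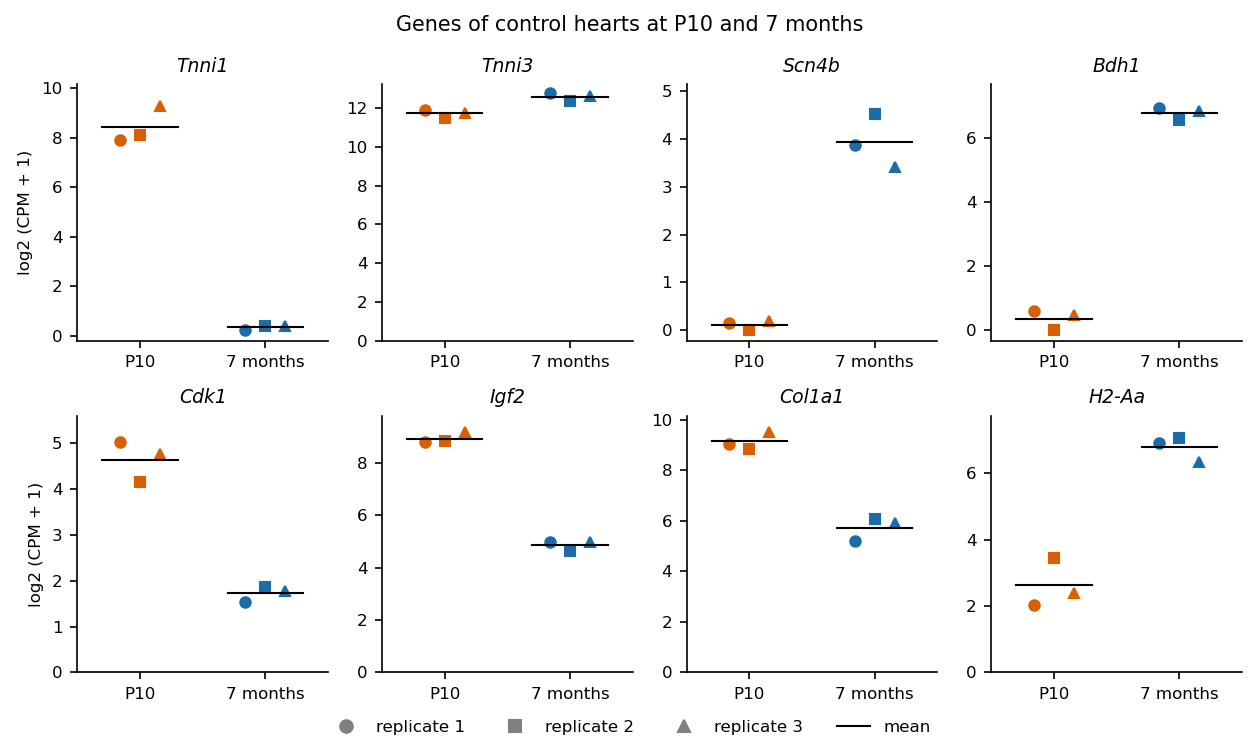
Level of 8 genes in each control library, as log2 of CPM plus 1, with replicates by symbol and the group mean as a line. Tnni1, Cdk1, Igf2 and Col1a1 are lower in all 7-month libraries than in all P10 libraries, and Tnni3, Scn4b, Bdh1 and H2-Aa are higher.

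Contractile proteins of the adult heart rose together. Of 21 tested genes for adult sarcomere proteins 18 rose and the other 3 did not pass the test, with a median log2 fold change of 0.63 against -0.01 over all rows tested. The rises were mostly modest: 4 of the 21 reached 2-fold. Tcap, telethonin, which caps titin at the Z-disc, led with 534, 469 and 359 CPM at P10 and 2971, 1356 and 1811 CPM at 7 months (log2 fold change 2.18, SE 0.26, adjusted p = 2.93e-05). Lmod2, which lengthens thin filaments, rose from 98.0 ± 10.4 CPM at P10 to 311 ± 19.6 at 7 months (SD, n = 3; 1.70, adjusted p = 1.81e-07), Mylk3, the cardiac myosin light chain kinase, by 1.46 and the M-band protein Myom2 by 1.12.

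Tnni3, the adult cardiac troponin I and partner of Tnni1 in the switch of troponin isoforms, rose from 3774, 2889 and 3467 to 6858, 5266 and 6210.0 CPM (log2 fold change 0.85, SE 0.14, adjusted p = 0.000196; chromosome 7, 4518305 to 4522718). On the log2 scale Tnni1 thus fell far more than Tnni3 rose, while in CPM the rise of Tnni3 was the larger change. Cardiac actin, Actc1, rose from 5294 ± 288 CPM at P10 to 8357 ± 574 at 7 months (SD, n = 3; 0.66, adjusted p = 0.00043). Myh6, the alpha myosin heavy chain, rose from 15403, 10852 and 11999 to 18829, 16466 and 20746 CPM (log2 fold change 0.55, SE 0.15, adjusted p = 0.00709). Its call was lost with P10 control 1 alone (0.29, adjusted p = 0.239) and in the 5 deep control libraries fitted by themselves (0.47, adjusted p = 0.0688). The ventricular light chain Myl3 stood at 4412 to 5185 CPM at P10 and 4454 to 5279 at 7 months, and its groups overlapped (-0.01, adjusted p = 0.977).

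Fetal, atrial and skeletal isoforms of the sarcomere went the other way, less evenly. Of 18 listed genes 15 were tested, of which 10 fell and 1, Myl1, rose (median -1.35). Myl4, the atrial essential light chain, stood at 240.4, 23.3 and 143 CPM at P10 and 7.62, 12.9 and 14.4 CPM at 7 months (-3.82, adjusted p = 0.023), and Myl7 moved with it (-4.70, adjusted p = 0.0223). These are also atrial markers, as described above. Both calls were lost without P10 control 1 or any single 7-month control, with adjusted p up to 0.0804 and 0.0729, and with the replicate number as a block (-3.18, adjusted p = 0.0599 and -3.97, adjusted p = 0.0537). The count of falls was 6 without any single 7-month control and 4 without P10 control 1, and the rise of Myl1 was lost without P10 control 2 or 3 or 7-month control 1 or 2.

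A pair of sarcomere genes known to rise in adult heart disease did not pass the test. Beta myosin heavy chain, Myh7, stood at 682, 286 and 318 CPM at P10 and 227, 195 and 1051 CPM at 7 months (0.14, adjusted p = 0.926). The groups overlapped, with 7-month control 3 and P10 control 1 highest, and without 7-month control 3 the log2 value was -1.07, adjusted p = 0.465. Skeletal actin, Acta1, stood at 67.8, 16.6 and 21.8 CPM and at 81.7, 56.2 and 24.7 CPM (0.34, adjusted p = 0.72), again with overlap, and at 1.34, adjusted p = 0.264 without P10 control 1.

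**Figure D3:**
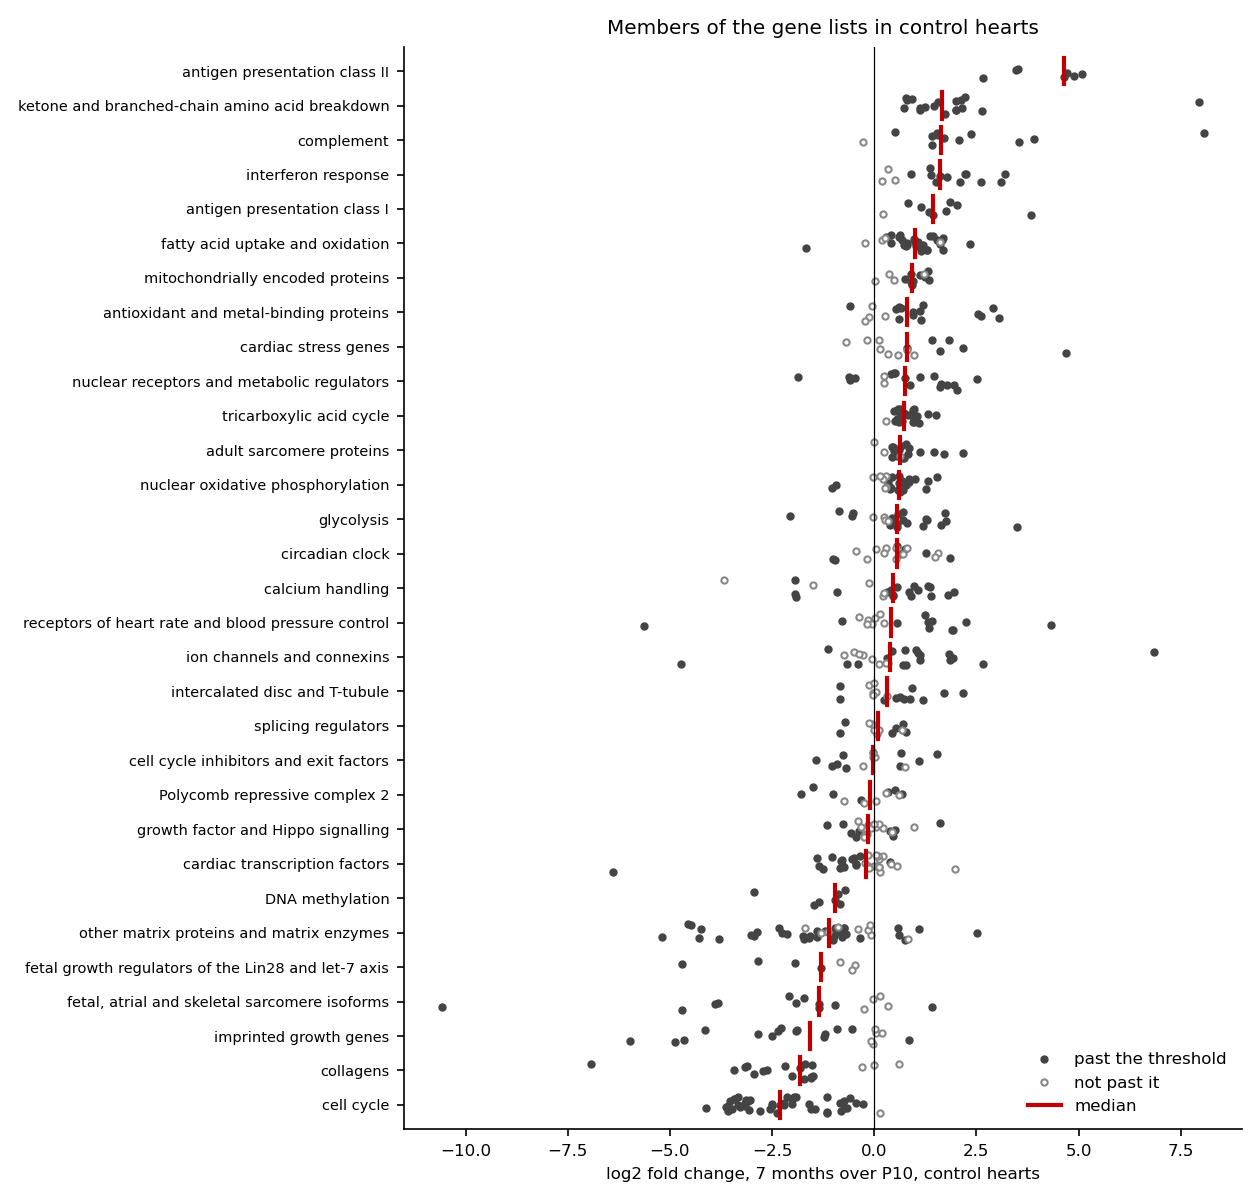
Log2 fold change from P10 to 7 months of every tested member of the gene lists in control hearts, filled where it passed the adjusted p of 0.05, with the median of each list as a bar. The lists are sorted by their medians, from cell cycle at -2.30 to antigen presentation class II at 4.65.

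The machinery that moves calcium at each beat rose in part. Of 23 genes of calcium handling 14 rose and 4 fell (median 0.46). Atp2a2, the pump SERCA2 that refills the sarcoplasmic reticulum, stood at 2325, 3399 and 2546 CPM at P10 and 6020.4, 7187 and 7146 CPM at 7 months (log2 fold change 1.31, SE 0.18, adjusted p = 5.51e-05). Its inhibitor phospholamban, Pln, rose by 1.08 and the release channel Ryr2 by 0.85. The store protein Hrc rose from 259 ± 26.6 CPM at P10 to 989.9 ± 23.4 at 7 months (SD, n = 3; 1.95, adjusted p = 5.09e-07), S100a1, which raises the activity of pump and channel, by 1.37, and the L-type channel subunit Cacna2d1 by 1.38. Among the falls was Cacna1g, a T-type calcium channel of the immature heart and of pacemaker cells, from 44.8, 30.0 and 39.5 to 11.6, 10.2 and 10.5 CPM (-1.94, adjusted p = 5.31e-05).

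More ion channels rose than fell. Of 26 genes for channels and connexins 14 rose and 4 fell (median 0.38). The extremes were Scn4b, above, and Kcne1, the subunit that slows the Kcnq1 potassium channel. Kcne1 fell from 190.4, 196 and 227 to 8.60, 7.08 and 7.70 CPM (log2 fold change -4.72, SE 0.14, adjusted p = 2.1e-10), with no overlap of the groups. Kcnd3, a channel of the transient outward current, rose from 3.35, 0 and 1.64 to 15.6, 14.6 and 16.5 CPM (2.66, adjusted p = 1.62e-06), and stood at 3.27, adjusted p = 1.37e-06 without P10 control 1. Kcnj3, which the vagus nerve opens through acetylcholine, rose by 1.86. Connexin 45, Gjc1, fell by 1.12.

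At the junctions between muscle cells and in the T-tubules 9 of 17 genes rose and 2 fell (median 0.31). The disc proteins Xirp2 (2.18, adjusted p = 2.12e-05), desmoplakin, Dsp (1.72, adjusted p = 1.3e-05), and Nrap (1.20, adjusted p = 1.93e-06) rose most. The falls were in Cav3, caveolin 3, and Bin1, which shapes T-tubule membrane. Cav3 went from 111, 133 and 106 to 66.9, 59.1 and 62.6 CPM (-0.83, adjusted p = 1.67e-05) and Bin1 from 14.4, 9.99 and 14.0 to 8.67, 7.14 and 7.70 CPM (-0.84, adjusted p = 0.000221), and the libraries of the 2 ages did not overlap in either.

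Genes for burning fuel in mitochondria rose broadly. Of 31 genes of fatty acid uptake and oxidation 26 rose and 1 fell (none without P10 control 3 or 7-month control 1, 2 without 7-month control 2; median 0.99, 14 rises of at least 2-fold). Lpl, the lipoprotein lipase that frees fatty acids from blood lipids, stood at 723, 872 and 709.6 CPM at P10 and 4147, 4043 and 3439 CPM at 7 months (log2 fold change 2.35, SE 0.12, adjusted p = 2.75e-08). The fatty acid transporter Cd36 rose by 1.61, and the oxidation enzymes Hadhb, Ech1 and Acadm by 1.68, 1.68 and 1.65. Pdk4, which spares glucose by blocking pyruvate dehydrogenase, varied too much within the groups to pass the test (23.8, 66.6 and 75.2 and 45.7, 288 and 131 CPM, 1.60, adjusted p = 0.161).

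All 18 genes for breaking down ketone bodies and branched-chain amino acids rose (median 1.65), 14 of them at least 2-fold. Beside Bdh1 this held for Oxct1, which activates ketone bodies for oxidation. It went from 289, 336 and 187 to 1128, 1167 and 1097 CPM (log2 fold change 2.12, SE 0.18, adjusted p = 9.74e-07). Ppm1k, the phosphatase that switches on oxidation of branched-chain ketoacids, rose from 18.0, 23.3 and 19.7 to 109.8, 125 and 119 CPM (2.63, adjusted p = 1.59e-06), and Bckdha, a subunit of that oxidizing complex, by 2.22.

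The tricarboxylic acid cycle followed: 22 of 23 genes rose and the other did not pass the test, with smaller changes (median 0.74, 4 of at least 2-fold) and no overlap of the groups in any of the 23. Suclg2 rose by 1.51, Ogdh by 1.32 and Idh2, from 1068 ± 50.7 CPM at P10 to 2295 ± 242 at 7 months (SD, n = 3), by 1.11. Of 33 nuclear genes of oxidative phosphorylation 25 rose and 2 fell (median 0.59), 20 and 2 without P10 control 2. Ndufs1 of complex I rose by 1.32. Of the 13 proteins that the mitochondrial genome encodes 9 rose and the other 4 did not pass the test (median 0.93). mt-Co3 rose by 1.25 (25314, 30932 and 36878 to 59355, 84181 and 77908 CPM), while mt-Nd5 stood at 9144, 13169 and 9359 and 6152, 14503 and 11589 CPM with overlapping groups (0.03, adjusted p = 0.94).

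Mitochondrial transcripts together made up 27.0, 31.6 and 31.8% of the counts in the P10 libraries and 34.9, 45.7 and 42.1% at 7 months. All 3 older hearts thus lay above all younger ones (exact two-sided permutation p = 0.1, the smallest that 3 against 3 libraries allow). A rise of this size lowers the share left for all other genes, which TMM scaling is meant to offset. Fitting nuclear rows only gave 3891 rises and 3879 falls.

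Glycolysis genes rose in 17 of 25 and fell in 4, or in 2 without P10 control 1 (median 0.55). The insulin-dependent glucose transporter Slc2a4 rose from 147, 129.8 and 119.7 to 432, 378 and 418 CPM (1.62, adjusted p = 7.26e-07), and hexokinase 2 by 1.75. The regulator Pfkfb1, which makes and removes a fructose bisphosphate that drives glycolysis, rose from 1.99, 3.33 and 2.05 to 23.7, 20.8 and 24.7 CPM (3.50, adjusted p = 6.23e-06), where the value of P10 control 2 is 1 read. The general enolase Eno1 fell by 0.54.

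Of 19 tested nuclear receptors and metabolic regulators 13 rose and 4 fell (median 0.76). There were 2 falls without P10 control 1 and 1 without P10 control 3. Their part in the rise of the fuel genes was not tested. Klf15, a regulator of fatty acid and amino acid use, rose from 4.14, 3.33 and 4.22 to 29.2, 19.9 and 22.6 CPM (log2 fold change 2.52, SE 0.24, adjusted p = 2.71e-06). The orphan receptors Esrrb and Esrrg rose by 2.02 and 1.61, Rxrg by 1.95, and the fatty acid receptor Ppara from 21.0, 9.99 and 18.5 to 43.9, 37.1 and 44.9 CPM (1.11, adjusted p = 0.000532). Of the thyroid hormone receptors Thra fell by 0.62 and Thrb rose by 0.76, calls that were both lost without P10 control 3 (-0.54, adjusted p = 0.0522 and 0.56, adjusted p = 0.0596) and with P10 control 1 alone, and Dio2, which makes active thyroid hormone within cells, fell by 1.86.

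Genes that handle oxidants and foreign compounds rose in 13 of 18 and fell in 1, a call lost without P10 control 1 (median 0.80). The glutathione transferases Mgst1 (4.92, 13.3 and 6.35 to 45.3, 47.9 and 49.2 CPM, 3.05, adjusted p = 3.02e-08) and Gstm1 (2.89, adjusted p = 4.63e-09) and the quinone reductase Nqo1 (2.53, adjusted p = 1.02e-07) led this list.

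The exchange of isoforms was followed within each library as the log2 ratio of length-scaled counts, adult or muscle form over fetal or general form. This measure needs no scaling between libraries. Of 18 pairs 16 had a ratio in all 6 libraries, and in 13 of these the ages did not overlap. Troponin I shifted most: Tnni3 over Tnni1 was 4.35, 3.74 and 2.84 in P10 libraries and 15.53, 14.43 and 14.68 at 7 months, a shift of 11.24.

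The next largest shifts were in general cell machinery. Ezh1 over Ezh2, the alternative catalytic subunits of Polycomb repressive complex 2, went from -0.15, -1.37 and 0.04 to 2.16, 2.14 and 2.27. Eef1a2 over Eef1a1, the muscle and neuron form of a translation elongation factor over the general form, went from -4.14, -3.59 and -4.14 to -1.62, -1.45 and -1.43. In this pair the general form remained the more abundant at 7 months.

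Subunits of cytochrome oxidase shifted toward their muscle forms, by 1.97 for Cox6a2 over Cox6a1, 1.68 for Cox8b over Cox8a and 1.59 for Cox7a1 over Cox7a2. The muscle form was already ahead at P10 in each of these pairs. In absolute terms the pairs differed: Cox8a fell (-1.02, adjusted p = 6.6e-05) as Cox8b rose (0.67, adjusted p = 0.00104), while Cox7a1 rose (1.54, adjusted p = 2.31e-06) and Cox7a2 stood at -0.04 (adjusted p = 0.811).

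Creatine kinase shifted by 1.72 toward the muscle form Ckm, hexokinase by 1.29 toward Hk2, the adenine nucleotide carrier by 1.18 toward Slc25a4, enolase by 1.08 toward Eno3, carnitine palmitoyltransferase by 0.87 toward Cpt1b and lactate dehydrogenase by 0.79 toward Ldhb. Hexokinase changed order, from -0.64, -0.87 and -1.02 to 0.69, 0.40 and 0.25. The exceptions were pairs whose ages overlapped. Myh6 over Myh7 was 4.51, 5.25 and 5.25 and 6.38, 6.41 and 4.31, with 7-month control 3 below all P10 libraries. Actc1 over Acta1 was 6.38, 8.25 and 7.97 and 6.63, 7.19 and 8.53, and Slc2a4 over Slc2a1 overlapped as well.

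**Figure D4:**
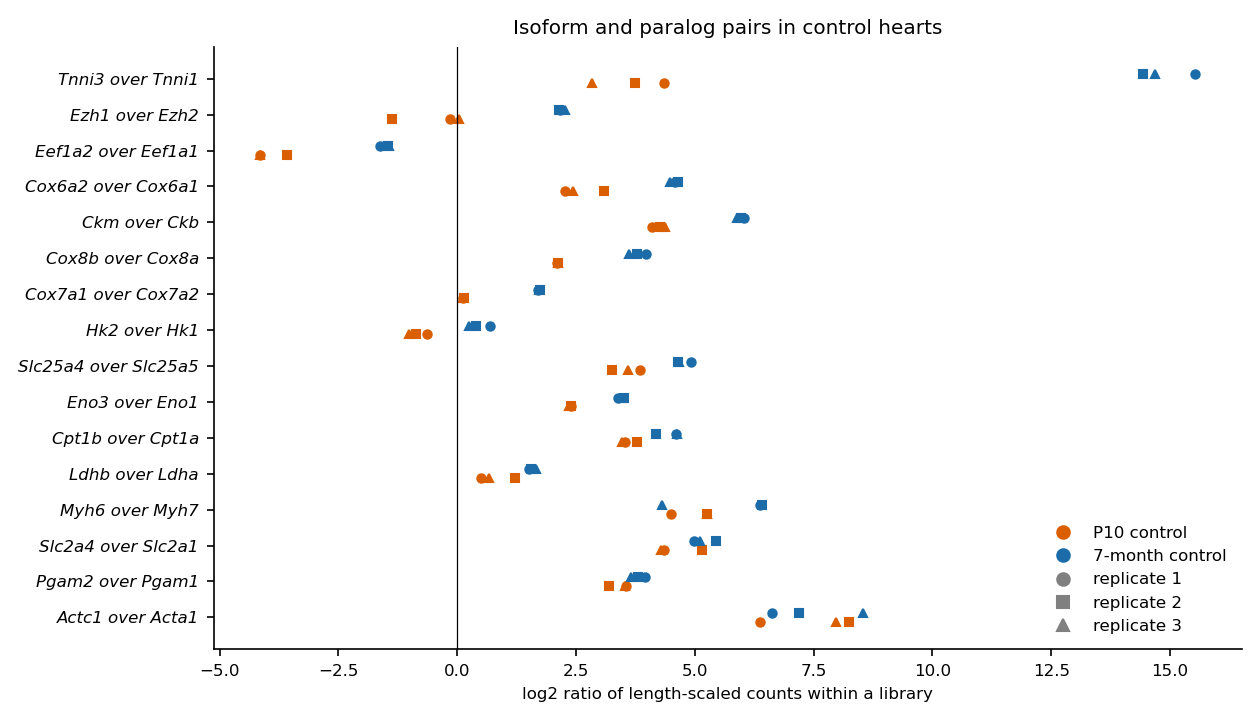
Log2 ratio of length-scaled counts for 16 isoform or paralog pairs in each control library, P10 in orange and 7 months in blue, replicates by symbol. The ages are apart in 13 pairs, most for Tnni3 over Tnni1, and overlap for Myh6 over Myh7, Slc2a4 over Slc2a1 and Actc1 over Acta1.

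Genes of the cell cycle fell almost without exception. Of 45 tested members 44 fell (median -2.30), and 36 fell at least 2-fold. Mki67, the proliferation antigen, stood at 117, 69.9 and 81.4 CPM at P10 and 9.29, 11.7 and 7.26 CPM at 7 months (log2 fold change -3.35, SE 0.28, adjusted p = 5.56e-06). Cdk1, the kinase that starts mitosis, fell from 31.2, 16.6 and 25.9 to 1.90, 2.65 and 2.41 CPM (log2 fold change -3.58, SE 0.26, adjusted p = 6.67e-07; chromosome 10, 69335146 to 69352912), its cyclins Ccnb1 and Ccnb2 by 3.59 and 3.42, the phosphatase Cdc25c by 4.12 and Ect2, which places the cleavage furrow, by 3.44. A small fall was that of Pcna, the clamp of replication and repair (52.9, 46.6 and 53.0 to 36.7, 40.0 and 38.6 CPM, -0.45, adjusted p = 0.00276). The exception was cyclin D2, Ccnd2, at 59.7, 66.6 and 69.8 and 69.3, 79.0 and 68.2 CPM with overlapping groups (0.15, adjusted p = 0.24). In whole hearts fewer dividing cells and less of these transcripts per cell cannot be told apart, nor can the cell type they come from.

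Promoters of this list, whose members moved together, and of other lists were searched for short motifs. RefSeq windows of GRCm38.p6 reach from 250 bases before to 50 after a gene's start and number 32851 in all. They were found for 35 of the 45 cell cycle genes (40 windows). On either strand, CCAAT was present in 75.0% of the cell cycle windows against 37.4% of all windows, and TTTGAA, the core of the cell cycle homology region, in 47.5% against 17.9%. Both were present in 45.0% against 6.95%. Of 2 forms of the E2F site, TTTGGCGC was present in 12.5% against 0.514% and TTTCCCGC in 10.0% against 1.07%. CCAAT was about as frequent in some lists that rose, in 4 of 5 windows of class II (80.0%), 6 of 8 of class I (75.0%) and 64.0% of 25 windows of the tricarboxylic acid cycle, and TTTGGCGC was present in 2 of the 8 class I windows. These are descriptions of letters, not of bound sites. The 250 bases before the start are shown for 4 members that hold a motif, taken in order of their falls. Windows of a single chromosome were left out of this choice, and Cdc25c, with the larger fall given above, is not shown. Bases run 5′ to 3′ on the strand of the gene, with CCAAT and TTTGAA or their reverse complements ATTGG and TTCAAA in capitals.

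Ccnb1 (chr13:100786487-100786736, - strand): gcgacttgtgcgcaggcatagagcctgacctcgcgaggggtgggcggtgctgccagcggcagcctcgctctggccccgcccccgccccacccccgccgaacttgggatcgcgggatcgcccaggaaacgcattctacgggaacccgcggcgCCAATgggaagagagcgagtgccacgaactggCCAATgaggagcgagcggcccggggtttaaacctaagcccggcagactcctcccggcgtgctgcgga

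Cdk1 (chr10:69352913-69353162, - strand): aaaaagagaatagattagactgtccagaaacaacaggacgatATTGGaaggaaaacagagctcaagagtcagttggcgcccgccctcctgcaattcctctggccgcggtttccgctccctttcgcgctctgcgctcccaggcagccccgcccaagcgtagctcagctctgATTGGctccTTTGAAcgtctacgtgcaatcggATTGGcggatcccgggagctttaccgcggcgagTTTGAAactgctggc

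Ect2 (chr3:27153855-27154104, - strand): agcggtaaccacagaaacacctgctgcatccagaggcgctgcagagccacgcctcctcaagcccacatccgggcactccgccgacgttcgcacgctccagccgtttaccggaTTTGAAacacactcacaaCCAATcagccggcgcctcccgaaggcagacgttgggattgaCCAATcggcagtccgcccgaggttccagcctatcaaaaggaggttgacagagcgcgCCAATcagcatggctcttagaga

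Ccnb2 (chr9:70421555-70421804, - strand): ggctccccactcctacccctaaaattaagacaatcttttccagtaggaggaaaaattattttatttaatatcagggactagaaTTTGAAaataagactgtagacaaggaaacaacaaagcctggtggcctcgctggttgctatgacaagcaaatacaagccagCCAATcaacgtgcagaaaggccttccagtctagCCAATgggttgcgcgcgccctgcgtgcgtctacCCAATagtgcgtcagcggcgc

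In Ccnb1 2 CCAAT matches lie 99 and 67 bases before the start, and Ccnb2 has 3, the nearest 21 bases before it. Cdk1 holds 3 matches in the reverse direction and TTTGAA 71 and 15 bases before the start. Ect2 holds 3 forward matches and TTTGAA 138 bases before it. The 4 genes fell by 3.42 to 3.59 on the log2 scale.

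Inhibitors of the cycle did not rise as a group: of 15 tested, 4 rose and 5 fell (median -0.04). Ccng1, a p53 target, rose from 215, 209.7 and 204 to 527, 723 and 575 CPM (1.54, adjusted p = 1.92e-06). The pocket proteins parted, with Rbl2 higher (1.09, adjusted p = 4.82e-05) and Rbl1 lower (-1.43, adjusted p = 0.00013). Cdkn1a, the inhibitor p21, fell from 25.5, 36.6 and 35.5 to 12.9, 17.9 and 14.6 CPM (-1.02, adjusted p = 0.00123).

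Imprinted growth genes fell in 14 of 20 tested and rose in 1 (median -1.56), of which 12 fell at least 2-fold. Igf2, the fetal growth factor (chromosome 7, 142650768 to 142666816), stood at 447, 459 and 577 CPM at P10 and 30.7, 23.8 and 30.6 CPM at 7 months (log2 fold change -4.14, SE 0.15, adjusted p = 1.33e-09). H19, the non-coding RNA beside it (chromosome 7, 142575530 to 142578146), stood at 431, 486 and 575 and 15.3, 24.4 and 19.8 CPM (log2 fold change -4.65, SE 0.22, adjusted p = 2.45e-08). These neighbours, expressed from opposite parental alleles, thus fell 17.6-fold and 25.1-fold. Mest fell 29.1-fold, and the non-coding RNAs Meg3 and Rian, of another imprinted cluster, by 2.86 and 2.36 on the log2 scale. Igf2r, the receptor that clears Igf2, stood at 101, 96.5 and 116 and 85.8, 119.6 and 107 CPM (-0.04, adjusted p = 0.826), and Impact was the rise (0.86, adjusted p = 4.71e-05).

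Of 9 genes of the Lin28 and let-7 axis of fetal growth 7 were tested and 4 fell, each at least 2-fold. Igf2bp3 and Igf2bp2, which bind Igf2 messenger RNA, fell by 2.84 and 1.31. In P10 control 2 no read of Igf2bp3 was found, so its groups overlap. Among 23 genes of growth factor and Hippo signalling 4 rose and 5 fell. Igf1 fell from 31.6, 26.6 and 42.5 to 13.7, 16.4 and 19.2 CPM (-1.15, adjusted p = 0.000115), the neuregulin co-receptor Erbb2 by 0.75, and the cardiac growth factor Fgf16 rose by 1.60.

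Genes of the extracellular matrix fell as well. Of 19 tested collagen genes 16 fell, all at least 2-fold, and the other 3 did not pass the test (median -1.82). Col1a1, the main chain of fibrillar collagen, stood at 525, 456 and 735 CPM at P10 and 35.8, 66.6 and 58.5 CPM at 7 months (log2 fold change -3.44, SE 0.29, adjusted p = 3.37e-06). Col3a1 fell from 1613 ± 156 CPM at P10 to 187 ± 73.9 at 7 months (SD, n = 3; -3.11, adjusted p = 1.52e-06) and Col4a1 of basement membranes by 1.54. The level of a transcript says nothing of the protein already laid down.

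Of 44 other matrix proteins and enzymes 30 fell and 5 rose (median -1.10). Elastin went from 761, 736 and 867 to 17.8, 24.9 and 22.7 CPM (log2 fold change -5.18, SE 0.51, adjusted p = 3.29e-05), while periostin, which fibroblasts secrete in growing or wounded tissue, went from 588, 586 and 599 to 27.3, 37.7 and 29.3 CPM (log2 fold change -4.23, SE 0.45, adjusted p = 4.8e-05). Fibronectin fell by 2.88 and tenascin C, Tnc, by 3.80. Inhibitors of matrix proteases were among the rises: Timp4 went from 5.27, 6.66 and 7.33 to 57.3, 23.1 and 28.6 CPM (2.52, adjusted p = 0.000388) and Timp3 rose by 1.09, and fibulin 1, Fbln1, rose by 0.76.

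Markers of fibroblasts fell in part. Of 10 markers 6 fell, 1 rose and 3 did not pass the test (median -0.79). Among the falls was Tcf21, a factor of resident fibroblasts, from 17.3, 23.3 and 19.2 to 7.23, 9.29 and 9.82 CPM (-1.08, adjusted p = 6.84e-05). The summed level of the 10 markers was 860.3 to 995 CPM at P10 and 716 to 1057 CPM at 7 months, with overlap. The part of fibroblasts in the fall of matrix genes was not tested.

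Jarid2, the gene floxed in all these animals and a partner of Polycomb repressive complex 2 (PRC2), which marks histones for silencing, fell with age without any Cre. Between the levels given above it fell by 1.00 on the log2 scale (adjusted p = 1.02e-05; chromosome 13, 44730774 to 44921643), a fall of 2.00-fold with tight replicates. Of the 12 PRC2 genes 3 rose and 4 fell, with 1 rise without P10 control 1 or 7-month control 3. The catalytic subunit of dividing cells, Ezh2, fell from 16.5, 26.6 and 15.5 to 4.79, 4.87 and 4.59 CPM (-1.80, adjusted p = 5.56e-07) and Ezh1, which prevails in resting cells, rose from 24.0, 16.6 and 25.6 to 34.5, 34.5 and 35.6 CPM (0.51, adjusted p = 0.000828).

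All 7 genes of DNA methylation and its removal fell (median -0.97). Uhrf1, which brings the maintenance methylase to new DNA, fell by 2.95 and Dnmt3a, which methylates anew, from 51.5, 30.0 and 46.9 to 25.3, 23.8 and 24.2 CPM (-0.97, adjusted p = 7.62e-06). Cardiac transcription factors fell in 15 of 32 tested, mostly by little (median -0.20, 5 falls of at least 2-fold). Gata6 fell by 0.85 and Tbx2, which marks the atrioventricular canal, by 1.35. Gata4 stood at 80.4, 99.9 and 84.4 and 63.9, 83.8 and 79.0 CPM with overlap (-0.16, adjusted p = 0.278).

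Among 12 splicing regulators 4 rose (2 without P10 control 1) and 2 fell, all by less than 2-fold. Ptbp1, which holds back muscle exons, fell by 0.83 and Celf2 rose by 0.78. Of 18 clock genes 5 rose and 2 fell. There were 8 rises without 7-month control 2, 4 falls without 7-month control 1, and 1 fall without 7-month control 3 or P10 control 3. Nr1d1, the repressor Rev-erb alpha, rose from 16.4, 16.6 and 13.4 to 45.4, 52.1 and 64.5 CPM (1.85, adjusted p = 4.22e-07) and the repressor Nfil3 fell by 1.02, while Dbp ranged from 26.7 to 148 CPM within the 7-month group (1.56, adjusted p = 0.0634). Without 7-month control 1 Dbp stood at 0.60, adjusted p = 0.187. The hour of collection is not given.

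Receptors and hormones that set heart rate and blood pressure rose in 9 of 18 tested and fell in 2 (median 0.41). Adra1a, an adrenergic receptor for noradrenaline, rose from 0.355, 0 and 0.553 to 8.47, 10.3 and 8.56 CPM (log2 fold change 4.32, SE 0.27, adjusted p = 9.34e-08). The muscarinic receptor Chrm2, through which the vagus slows the heart, rose by 1.92, the angiotensin receptor Agtr1a by 1.34 and Corin, the protease that activates natriuretic peptides, by 1.90. The peptides themselves differed. Nppa stood at 246, 53.3 and 96.2 CPM at P10 and 147, 138 and 113 CPM at 7 months with overlapping groups (-0.18, adjusted p = 0.799), and at 0.62, adjusted p = 0.37 without P10 control 1. Nppb rose from 74.7, 23.3 and 54.1 to 116, 179.7 and 188 CPM (1.42, adjusted p = 0.00592), a call that was lost with P10 control 1 alone (1.12, adjusted p = 0.0753).

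Of 14 tested stress genes of the heart 6 rose and the other 8 did not pass the test (median 0.80). They include Ankrd1, which sits on titin (233, 213 and 338 to 1078, 1067 and 744 CPM, 1.84, adjusted p = 1.41e-05), the small heat shock protein Cryab (1.60, adjusted p = 1.66e-06) and the protease inhibitor Serpina3n (1.24, 3.33 and 0.676 to 21.2, 30.5 and 22.9 CPM, 4.69, adjusted p = 1.96e-06). Myh7, Acta1 and Nppa, members of this list known from failing hearts, did not pass the test. The peptide gene Nppb rose, with the limit given above.

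Immune genes were higher at 7 months. All 7 genes of class II antigen presentation, by which specialised cells show peptides to T cells, rose at least 2-fold, with a median of 4.65. H2-Aa (chromosome 17, 34282744 to 34287823) stood at 3.12, 9.99 and 4.28 CPM at P10 and 119.9, 134 and 81.0 CPM at 7 months (log2 fold change 4.89, SE 0.26, adjusted p = 5.91e-08). H2-Ab1, H2-Eb1 and the invariant chain Cd74 rose by 4.65, 5.09 and 4.72. The value of H2-Eb1 in P10 control 2 is 4 reads.

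Of 9 class I genes 8 rose (median 1.44), among them B2m (82.2, 79.9 and 78.4 to 265, 342 and 257 CPM, 1.84, adjusted p = 1.08e-06) and H2-K1 (2.03, adjusted p = 0.000102). Class I and class II genes are families of similar sequence, so reads may have been divided between copies. Of 15 interferon response genes 12 rose (median 1.62), such as Ifit1 (0.754, 0 and 1.33 to 10.8, 10.1 and 5.73 CPM, 3.09, adjusted p = 1.8e-05) and Oas2 (3.19, adjusted p = 8.09e-05). Of 12 complement genes 11 rose (median 1.63), such as C4b (2.57, 0 and 3.17 to 37.9, 32.2 and 28.8 CPM, 3.53, adjusted p = 1.07e-06). C3 rose from 6.98, 23.3 and 22.3 to 206, 207 and 258 CPM (3.90, adjusted p = 0.000607) and stood at 4.88, adjusted p = 0.000813 without P10 control 3. The other members of these lists did not pass the test.

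The Y box of class II promoters, CTGATTGG, was searched for in the same windows after the rise was seen. It contains a CCAAT match in the reverse direction. It was present in 2 of 5 class II windows (40.0%), against 4.10% of all windows. It was also present in 5 of 8 windows of class I genes (62.5%), in 17.5% of the cell cycle windows and in 21.1% of those of genes that break down ketone bodies and branched-chain amino acids. The 2 class II windows that hold it are shown, with the match in capitals. They were picked for holding the match, not by the size of the rise.

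H2-Aa (chr17:34287824-34288073, - strand): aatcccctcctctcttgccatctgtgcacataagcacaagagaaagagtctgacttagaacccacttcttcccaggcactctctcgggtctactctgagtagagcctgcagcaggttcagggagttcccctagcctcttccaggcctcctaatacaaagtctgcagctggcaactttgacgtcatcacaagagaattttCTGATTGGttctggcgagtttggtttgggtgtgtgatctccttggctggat

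H2-Eb1 (chr17:34305617-34305866, + strand): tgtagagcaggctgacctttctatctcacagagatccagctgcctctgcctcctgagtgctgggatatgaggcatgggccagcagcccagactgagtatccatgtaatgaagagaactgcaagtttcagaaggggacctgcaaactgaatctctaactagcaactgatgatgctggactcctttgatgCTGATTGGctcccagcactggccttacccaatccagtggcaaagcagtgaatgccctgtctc

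The match lies 51 bases before the start in H2-Aa and 62 bases before it in H2-Eb1.

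Macrophage markers moved with the immune lists. Of 14 markers 13 rose and 1 fell (median 1.48), and their summed level was 123 to 180.4 CPM at P10 and 399 to 516 CPM at 7 months. Lyz2 rose from 33.8, 16.6 and 39.7 to 139, 145 and 112 CPM (1.90, adjusted p = 8.43e-07), Ccr2, the receptor of cells that arrive from blood, from 1.06, 0 and 1.60 to 11.2, 16.1 and 5.88 CPM (3.06, adjusted p = 0.000134) and the scavenger receptor Cd163 by 2.33. The fall was in Cx3cr1 (from 9.45 ± 2.43 CPM at P10 to 5.98 ± 1.91 at 7 months, SD, n = 3; -0.84, adjusted p = 0.00355), where P10 control 2 overlaps the older hearts. The marker list shares 3 C1q genes with the complement list. The part of these cells in the rise of immune genes was not tested.

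Markers of other cell types were mixed. All 5 markers of heart muscle rose (median 0.70). Of 14 endothelial markers 3 rose and 5 fell (median -0.12), with Cldn5, a tight junction protein, lower by 1.60. Of 10 markers of pericytes and smooth muscle 1 rose and 4 fell, and of 6 of the epicardium 3 fell, among them Wt1 (8.67, 13.3 and 7.35 to 3.29, 2.68 and 2.44 CPM, -1.55, adjusted p = 6.44e-05). Markers of T and NK cells rose in 2 of 7 and summed to at most 6.13 CPM. Fat cell markers rose in 3 of 4 tested (median 5.24) but summed to 2.21 to 27.1 CPM at 7 months, highest in control 3, and the count was 0 without P10 control 1 or without P10 control 3. Globin transcripts made up 0.983, 1.14 and 0.876% of the unscaled counts at P10 and 0.847, 0.199 and 0.172% at 7 months (exact permutation p = 0.1). After scaling, the summed erythroid markers overlapped, at 7605 to 9188 CPM at P10 and 2135 to 9453 CPM at 7 months, and 1 of 7 fell.

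The same ages were compared in mutant hearts, and the difference between the 2 changes was tested. In 1454 rows (9.39%) the change with age in controls differed from that in mutants, in 698 (4.51%) toward a higher and in 756 (4.88%) toward a lower value in controls. These counts depended on single libraries: without P10 control 1 they were 68 and 94, without P10 control 3 357 and 346, without 7-month control 2 274 and 369, without 7-month control 3 263 and 325, and without 7-month control 1 1352 and 1191. In mutants alone 7480 rows (48.3%) changed with age.

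The tricarboxylic acid cycle differed most often: in 18 of 23 genes the value for controls was higher, and the median rise was 0.74 in controls and 0.02 in mutants. The same held for 13 of 18 genes that break down ketone bodies and branched-chain amino acids (1.65 against 0.69) and 12 of 31 of fatty acid use (0.99 against 0.20). In calcium handling it was 8 of 23, with Atp2a2 at 1.31 in controls and 0.33 in mutants (adjusted p of the difference 0.0318).

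Matrix genes fell further in controls, in 11 of 19 collagens (median -1.82 against -0.96) and 21 of 44 other matrix genes. Tnc fell by 3.80 in controls and stood at -0.60 in mutants (adjusted p of the difference 0.000243). The cell cycle list fell in both, with a difference in 8 of 45 genes, and class II genes rose in both (4.65 against 5.23). The difference passed the test in 0 of 7 class II, 0 of 15 interferon, 1 of 9 class I and 6 of 12 complement genes. It also passed in 5 of 14 macrophage markers, a list that shares 3 C1q genes with complement. Each of these had the lower value in controls. The median was 1.63 in controls and 2.63 in mutants for complement, and 1.48 and 2.46 for macrophage markers. Among 14 stress genes the difference passed the test in 3, each with the higher value in mutants (median of the list 0.80 in controls and 3.22 in mutants). Nppa, at -0.18 in controls, was at 3.67 in mutants (adjusted p of the difference 0.0199). Jarid2 fell by 1.00 in controls and stood at -1.65 in mutants, a difference of 0.65 (adjusted p = 0.024).

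**Figure D5:**
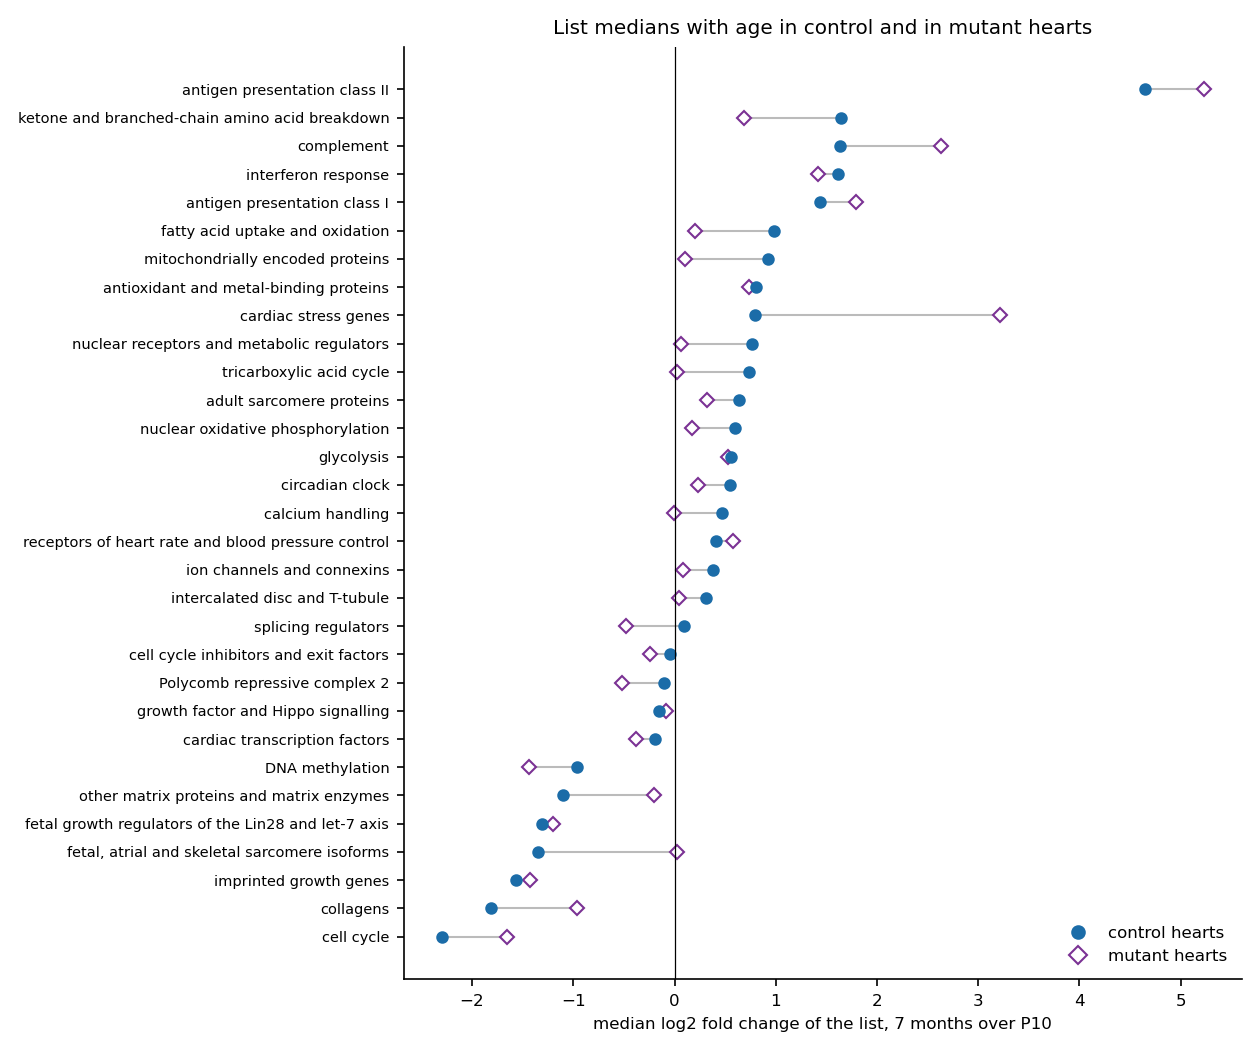
Median log2 fold change from P10 to 7 months of each gene list in control hearts (filled circles) and mutant hearts (open diamonds). Controls lie further from 0 for fuel genes, collagens and the cell cycle, and mutants for cardiac stress genes and complement.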

How the data were processed

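Whole-heart polyadenylated RNA was sequenced in 12 libraries, each deposited as 2 lane tables. The tables were made with Bowtie 1.1.2 and RSEM 1.3.0 on GRCm38.p6, per the submitters' processing notes. The sources used here give neither the annotation release nor filters or strand setting. Per the file headers, the authors deposited estimated counts, TPM and effective lengths. No value column belonged to no sample (0 columns).

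Estimated counts were added over lanes and rounded. Rows kept by filterByExpr of edgeR 4.0.16 (R 4.3.3, limma 3.58.1; minimum count 10) were scaled by TMM and fitted with the robust quasi-likelihood test over all 12 libraries in 4 groups of 3 (8 residual degrees of freedom), with Benjamini-Hochberg adjustment and a threshold of 0.05. Of 25098 rows, 9620 were not tested. The groups shared this fit so that the spread was estimated from all libraries. The contrasts were 7-month against P10 controls, and this change minus that in mutants. CPM values are TMM scaled. Isoform ratios use counts per effective length, with the deposited TPM as an alternative. The source names number the hearts within each group, but do not say whether each library came from a single animal. A p-value here reflects the spread among these samples, part of which may be technical. The lanes of a library differed by a chi-square of 1.15 to 2.13 per degree of freedom, and replicates without P10 control 2 by 15.6 to 127. P10 control 2 differed by 2.38 from P10 control 1 and 1.92 from P10 control 3, against 1.15 between its own lanes. Its depth limits this check, and it was counted as a separate sample.

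The replicate numbers come from the titles. Deviations of P10 and 7-month controls of the same number correlated at 0.41, 0.27 and 0.11 over 2176 rows, so the number was also fitted as a block, although the labels name no shared litter or day and the unmatched pair of P10 control 3 with 7-month control 2 reached 0.10.

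The alternatives were DESeq2 1.42.0, nuclear rows only, upper quartile scaling, no filter, a filter at the depth of P10 control 2 (median count of each group of at least 10 at that depth), coding and non-coding rows summed, the replicate block, each control library left out, and the 6 controls alone. The 5 deep controls alone and P10 control 1 alone against the 7-month controls were added after seeing the data. Simulated data were made from these libraries for 7-month against P10 controls (15244 rows). Of 100 genes changed by 1 on the log2 scale 70 were called, and of 100 changed by 2 93, with 5 false calls. The changed genes averaged at least 1 CPM and all other rows were left unchanged, whereas 50.2% of rows were called in the real data. These figures therefore do not cover genes below 1 CPM or a change this wide.

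The members and the 50 gene lists (31 of pathways, 19 of cell type markers) were chosen with earlier results of these data known. Of 735 listed symbols 733 were in the tables. Genes were named by a rule: the 15 largest called changes each way among coding rows of at least 5 CPM with groups that do not overlap, up to 4 called members each way and 2 others per list, isoform pairs, and Jarid2, Nppa, Nppb, Myh6, Myh7, Tnni1 and Tnni3. The text names 176 tested genes, of which 21 fall outside the rule and were chosen after their values were seen. Some genes that the rule picks are not reported here. Promoter sequences and gene positions are from RefSeq tables of GRCm38.p6.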

Additional observations from a re-analysis of the deposited data

Results flagged for a closer look

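In 52 of the genes described, the change from P10 to 7 months differed between control and mutant hearts by edgeR's test of the difference itself (adjusted p from 9.76e-06 for Kcne1 to 0.0491 for Cacna1g). The values here are the log2 change in controls minus the log2 change in mutants. They carry the same limit as the counts of such genes in the report, which fell to 68 and 94 without P10 control 1.

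Genes of contraction, calcium and cardiac signalling had the higher value in controls: Atp2a2 0.97, Pln 0.90, Ryr2 0.97, Hrc 0.86, Cacna2d1 1.14, Myh6 1.02, Mylk3 0.83, Dsp 1.01, Kcnj3 1.37, Chrm2 2.44, Adra1a 1.31 and Corin 0.84. So did genes that oxidize fatty acids, ketone bodies and amino acids, with Acadm at 1.09, Ech1 at 0.88, Bdh1 at 1.66, Bckdha at 0.94 and Ppm1k at 1.59, and genes of the mitochondrial cycle and complex I, with Idh2 at 0.65, Ogdh at 0.69, Suclg2 at 0.86 and Ndufs1 at 1.14. Among sugar enzymes and carriers the differences were 2.34 for Pfkfb1, 0.61 for Hk2, 0.78 for Slc2a4 and 0.77 for Ldhb. Regulators followed with Klf15 at 1.39, Esrrb at 0.78 and Esrrg at 1.45, and the transferase Gstm1 stood at 0.71 and Jarid2 at 0.65.

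Matrix genes had the lower value in controls: Col1a1 -1.63, Col3a1 -1.52, Cthrc1 -1.76, Fbln1 -0.95, Fbn2 -1.61, Fn1 -1.25, Mfap4 -3.26, Postn -3.03 and Tnc -3.20. The natriuretic peptides stood at -3.85 for Nppa and -1.98 for Nppb, the mitotic kinase Cdk1 at -1.31, the cell cycle inhibitor Cdkn1a at -1.52 and the methylation factor Uhrf1 at -1.25. The immune genes C4b and Lyz2 stood at -1.18 and -0.99. The others were the channels Kcne1 (-2.70) and Cacna1g (-1.14), Bin1 (-0.86), the general forms Ckb (-0.92) and Eef1a1 (-1.13), and the imprinted Mest (-1.30).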

How the results depend on the processing

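The counts of genes that changed between the ages stayed within 1.5 times of 3890 and 3880 in all alternatives but one. The filter set at the depth of P10 control 2 left 2024 rows, of which 639 rose and 603 fell, and moved the same rows by -0.25 on the log2 scale. Without single libraries the counts were 3101 to 3980 rises and 2906 to 4139 falls. The counts of genes whose change differed from that in mutants (698 and 756) were 241 and 291 with that filter, 210 and 271 with P10 control 1 alone, and 68 to 1352 and 94 to 1191 without single libraries.

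List medians that moved by more than the spread between libraries did so as follows, in log2 units. With the filter at the depth of P10 control 2 the median was 0.37 for adult sarcomere proteins, 0.62 for calcium handling, 0.17 for disc and T-tubule, 0.83 for fatty acid use, 1.11 for ketone and branched-chain amino acid breakdown, 0.27 for glycolysis, 0.49 for the tricarboxylic acid cycle, 0.34 for nuclear oxidative phosphorylation, 0.66 for mitochondrially encoded proteins, 0.39 for antioxidant proteins and -0.15 for splicing regulators, which stood at 0.09 with the usual filter. With P10 control 1 alone it was 0.41 for adult sarcomere proteins, 0.40 for nuclear oxidative phosphorylation, 0.77 for antioxidant proteins, -2.44 for the cell cycle, 0.15 for its inhibitors, -1.32 for imprinted genes, 0.050 for PRC2, 0.31 for splicing regulators and 0.27 for receptors. In the 6 controls alone it was -1.23 for imprinted genes, -0.93 for the Lin28 axis and 0.57 for receptors, and in the 5 deep controls alone 0.80 for the tricarboxylic acid cycle and 0.84 for antioxidant proteins. DESeq2 gave -1.87 for imprinted genes, -1.71 for the Lin28 axis, -0.34 for cardiac transcription factors and 0.27 for receptors. Upper quartile scaling gave 0.69 for the tricarboxylic acid cycle and 0.75 for antioxidant proteins, no filter 0.25 for receptors, and summed rows 0.51 for nuclear receptors.

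Leaving out single libraries gave medians of 0.88 to 1.07 for fatty acid use, 0.67 to 0.78 for the tricarboxylic acid cycle, 0.54 to 0.69 for nuclear oxidative phosphorylation, 0.68 to 1.00 for nuclear receptors, 0.75 to 0.82 for antioxidant proteins, -2.39 to -2.13 for the cell cycle, -0.22 to 0.074 for its inhibitors, -1.61 to -1.30 for imprinted genes, -0.29 to -0.087 for cardiac transcription factors, -0.22 to 0.069 for PRC2, 0.039 to 0.20 for splicing regulators, 0.37 to 0.49 for receptors and 1.44 to 1.90 for the interferon response. The medians of the inhibitors and of PRC2 thus change sign with 1 library. Under the replicate block the counts were 3827 and 3785, and the medians of antioxidant proteins and stress genes were 0.77 and 1.26. Among the genes described, the replicate block ended the calls of Myl4, Myl7 and Xist and changed no other call. The cause of these shifts was not tested.

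Of 163 genes described that changed with age, 152 kept direction and call in every one of the 16 alternatives that tested them. The limit of depth is P10 control 2, whose single read is worth 3.33 CPM, so the P10 level of low genes rests on 2 libraries. These 2 differ in Xist, and no setting separates age from that difference with more than 1 P10 library.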
